A study of Homo sapiens with 12 samples.

Results

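Nuclear-encoded subunits of the mitochondrial respiratory chain were followed through arginine starvation at the level of RNA and of ribosome occupancy. The genes were taken by name and by Ensembl transcript identifier: ATP5F1B (ENST00000262030), CYCS (ENST00000305786), UQCRC1 (ENST00000203407), UQCRC2 (ENST00000268379), SDHA (ENST00000264932), SDHB (ENST00000375499), COX5A (ENST00000322347), COX4I1 (ENST00000253452) and NDUFS1 (ENST00000233190). Of these 9 genes, 8 had a row in both tables, among 19686 transcripts for RNA and 19849 for footprints. NDUFS1, the only gene of the 9 from complex I, had no row under its identifier and is not analysed here. All 8 passed the filter on low counts in both assays, with 240 to 5740 counts per RNA library and 62 to 4859 per footprint library.

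RKO is a human colon cancer cell line, labelled wild type, and 1 line was used throughout. Both groups were grown in arginine-free DMEM with dialyzed serum; the fed cells received arginine at 400 uM and the starved cells at 12.5 uM, for 24 hours. RNA-seq and ribosome profiling, which sequences the mRNA fragments that ribosomes protect (footprints), were each done on 3 libraries per group, 12 in all. Nothing in the labels ties replicates to separate cultures, and p-values therefore reflect the spread among libraries alone, part or all of which may be technical.

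The respiratory chain passes electrons from NADH (through complex I) and from succinate (through complex II) to ubiquinone, on to cytochrome c through complex III, and to oxygen through complex IV; complexes I, III and IV pump protons, and ATP synthase uses the resulting gradient to make ATP. Most subunits are encoded in the nucleus, made on cytosolic ribosomes and imported, and within a complex they are assembled in fixed proportions. Subunits left without partners are generally degraded by mitochondrial proteases. Each complex other than complex I was represented: complex II by SDHA and SDHB, complex III by UQCRC1 and UQCRC2, complex IV by COX4I1 and COX5A, ATP synthase by ATP5F1B, and the mobile carrier by CYCS, which encodes cytochrome c.

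Promoter sequences are shown for the 4 genes on which the results turn: CYCS, whose RNA rose, UQCRC2, which fell furthest, and SDHA and SDHB, 2 subunits of 1 complex that moved apart. RefSeq's promoter table (build GRCh38.p14) held 7 of the 8 genes, ATP5F1B being the exception. The 250 bases before each annotated start are printed 5′ to 3′ on the strand of the gene. Capitals mark matches, on either strand, to the NRF1 consensus (GCGCA, any base, then GCGC), the ETS core CCGGAAG and the CCAAT box; NRF1 and the ETS factor GABP are known regulators of nuclear respiratory genes.
CYCS (chr7:25125261-25125510, minus strand): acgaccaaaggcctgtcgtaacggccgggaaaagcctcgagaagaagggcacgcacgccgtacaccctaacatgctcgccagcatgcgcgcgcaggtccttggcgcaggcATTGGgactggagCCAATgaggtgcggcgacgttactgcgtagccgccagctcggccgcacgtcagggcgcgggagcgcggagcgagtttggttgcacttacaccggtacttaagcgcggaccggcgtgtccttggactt
UQCRC2 (chr16:21953111-21953360, plus strand): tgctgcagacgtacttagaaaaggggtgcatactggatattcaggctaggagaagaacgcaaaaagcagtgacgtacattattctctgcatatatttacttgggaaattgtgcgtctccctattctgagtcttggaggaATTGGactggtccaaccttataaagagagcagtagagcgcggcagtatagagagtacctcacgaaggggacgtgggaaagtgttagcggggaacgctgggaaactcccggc
SDHA (chr5:218070-218319, plus strand): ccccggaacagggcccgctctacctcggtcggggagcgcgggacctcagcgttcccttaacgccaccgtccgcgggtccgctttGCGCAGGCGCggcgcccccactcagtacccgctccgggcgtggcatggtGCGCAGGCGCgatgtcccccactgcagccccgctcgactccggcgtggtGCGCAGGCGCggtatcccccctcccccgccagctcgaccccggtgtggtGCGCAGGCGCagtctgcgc
SDHB (chr1:17054033-17054282, minus strand): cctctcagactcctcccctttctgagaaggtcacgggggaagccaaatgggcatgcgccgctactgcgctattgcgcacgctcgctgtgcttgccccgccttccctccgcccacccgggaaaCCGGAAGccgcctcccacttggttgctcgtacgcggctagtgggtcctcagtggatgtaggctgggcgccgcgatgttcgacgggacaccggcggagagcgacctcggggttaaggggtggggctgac

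SDHA held 4 NRF1 matches, at 166, 117, 68 and 19 bases before its start, each 49 bases from the next. SDHB held none and 1 ETS match, 128 bases before its start. CYCS held 2 CCAAT boxes in opposite orientations, 140 and 127 bases before its start, and UQCRC2 held 1, at 111 bases. Among the others, UQCRC1 had 1 NRF1 match 47 bases before its start, and COX5A and COX4I1 had none of the 3 motifs. Of all 35116 promoters of the same length in that table, 5.07% held the NRF1 consensus, 8.52% the ETS core and 32.0% a CCAAT box. A match describes letters in this window and is not a binding site.

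Levels below are in CPM, counts scaled to a common library size after TMM scaling, a factor that aligns the bulk of transcripts between libraries. Log2 fold changes are of starved over fed cells, and a gene is called where its adjusted p is under 0.05. No spike-in was used here, so a change is always one against the remaining transcripts of that assay. RNA-seq covers a whole culture, so less RNA per cell and fewer cells holding it cannot be told apart.

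In RNA, 1 of the 8 genes rose, 5 fell and 2 were not called, while 67.9% of all 11572 tested transcripts were called, 33.8% higher and 34.1% lower (quasi-likelihood test in edgeR, p-values adjusted by Benjamini and Hochberg's method, as throughout). The gene that rose was CYCS; UQCRC2, COX5A, SDHA, ATP5F1B and UQCRC1 fell, and SDHB and COX4I1 were not called. The median log2 fold change of the 8 was −0.20, beside −0.01 over all tested transcripts. In footprints, 1 rose (CYCS), 6 fell and SDHB was not called, while 39.8% of 13457 transcripts were called, 18.9% higher and 20.9% lower. The median was −0.52 for the 8 and 0.05 for all. Translational efficiency, the footprints relative to RNA, was lower for 3 genes (UQCRC2, CYCS and SDHA), higher for 1 (SDHB) and not called for 4, while 22.8% of 11027 transcripts were called, 11.1% higher and 11.7% lower. The footprint change lay below the RNA change for 7 of the 8 genes, SDHB being the exception. These 2 changes come from separate fits, and the share of all transcripts with the same order was not counted. The median efficiency change was −0.30 for the 8 and −0.02 for all. The fit of efficiency gave both assays the same spread per transcript, although footprints varied more than RNA, so its errors may be too small. Efficiency and footprints per RNA use TMM factors over the transcripts kept in both assays, whereas the printed levels use those kept in 1 assay, so ratios of printed levels differ somewhat from footprints per RNA. With the factors of the printed levels 9.11% of transcripts were called higher and 15.8% lower in efficiency (median −0.11). Of the 8 genes, 0 were then called higher and 4 lower. With library totals, 14.2% of transcripts were called higher and 7.28% lower, and of the 8 genes 1 was called higher and 2 lower. Abundant transcripts were called more often: where the average log2 CPM was 5 or more, as it was for all 8 genes, 75.7% of transcripts were called in RNA, 51.5% in footprints and 26.8% in efficiency.

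**Figure D1:**
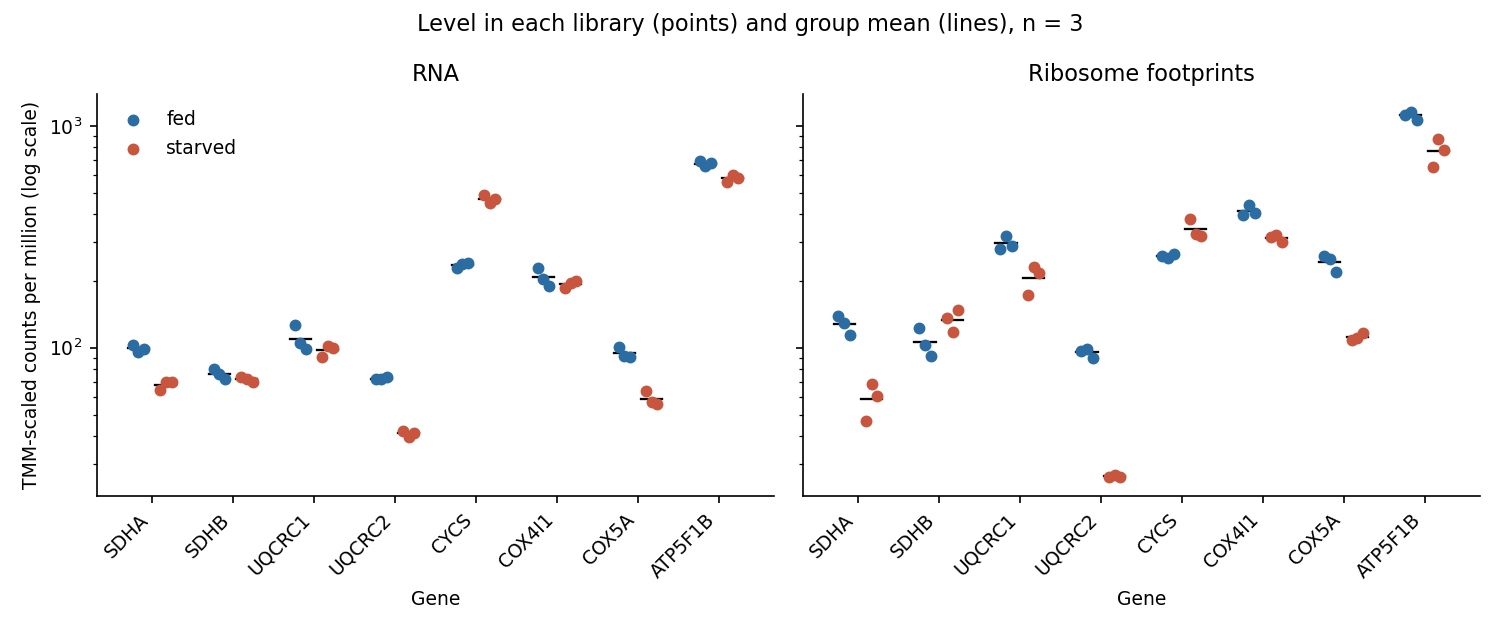
Level of each gene in TMM-scaled CPM (vertical axis, log scale) for RNA (left) and footprints (right); points are libraries, lines are group means (n = 3), fed in blue and starved in red. CYCS is the gene whose starved libraries lie above its fed libraries in both assays, and UQCRC2 shows the widest gap downward, from a mean of 95.2 to 26.3 in footprints.

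CYCS encodes cytochrome c, which carries electrons from complex III to complex IV and, once released into the cytosol, triggers the apoptosome. Its RNA measured 228, 238 and 240 CPM in fed replicates 1 to 3 and 487, 451 and 468 CPM in starved replicates 1 to 3. The groups lay far apart, the means being 236 ± 6.81 and 469 ± 17.7 CPM (SD, n = 3). The log2 fold change was 0.99 (SE 0.07, adjusted p = 2.38e-20), and 93.1% of tested transcripts had a lower value. Of the 8 genes it was the one with higher RNA in starved cells, where 33.8% of all transcripts were called higher.

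CYCS footprints rose less than its RNA. They were 259.6, 253 and 264 CPM in fed and 381, 326 and 319 CPM in starved libraries, which did not overlap. The log2 fold change in footprints was 0.40 (SE 0.12, adjusted p = 0.0158), so a near doubling of RNA came with 1.32-fold more footprints. Footprints per RNA went from 1.13 to 0.798, a log2 efficiency change of −0.50 (SE 0.13, adjusted p = 0.00826). The footprint call was lost without any 1 of the 3 fed footprint libraries (adjusted p of 0.0542, 0.0827 and 0.0646 without replicates 1, 2 and 3), with the fold change between 0.35 and 0.40. The efficiency change was −0.25 (adjusted p = 0.186) once a trend with abundance was removed from each library.

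Complex II, succinate dehydrogenase, is the enzyme of the citric acid cycle that sits in the respiratory chain. SDHA, its flavoprotein subunit, which oxidizes succinate, fell in both assays. SDHA RNA was 103, 95.9 and 98.9 CPM in fed and 64.6, 69.9 and 69.9 CPM in starved libraries. SDHA footprints were 138, 129 and 114 CPM in fed and 46.97, 68.5 and 60.6 CPM in starved libraries. In neither assay did the groups overlap. The log2 fold change was −0.55 in RNA (SE 0.08, adjusted p = 5.27e-09) and −1.12 in footprints (SE 0.15, adjusted p = 0.000138). The efficiency of SDHA fell by 0.49 (SE 0.15, adjusted p = 0.0219); this call was lost with library totals, with trend removal, and without fed footprint replicate 1, fed RNA replicate 2 or starved RNA replicate 3, with adjusted p from 0.0514 to 0.0790 in those 5 of 20 alternatives.

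SDHB, the iron-sulfur subunit that takes electrons from SDHA's flavin towards ubiquinone, was called in neither assay. SDHB RNA was 80.5, 76.1 and 72.5 CPM in fed and 74.2, 72.5 and 70.02 CPM in starved libraries, with overlap. Its log2 fold change in RNA was −0.08 (95% interval −0.24 to 0.08, adjusted p = 0.369). SDHB footprints were 123, 103 and 92.0 CPM in fed and 135, 118 and 149 CPM in starved libraries. Fed replicate 1 lay above starved replicate 2, and the log2 fold change of 0.33 (SE 0.15) did not pass the test (adjusted p = 0.0891). With trend removal, the RNA change was −0.18 (adjusted p = 0.0396) and the footprint change 0.43 (adjusted p = 0.0362), and both were then called. Leaving out 1 library at a time, the RNA change ranged from −0.12 to −0.04, being smallest without fed RNA replicate 1 (adjusted p = 0.713), and none of these fits called it. The footprint change ranged likewise from 0.21, without fed footprint replicate 3 (adjusted p = 0.374), to 0.45, without fed footprint replicate 1 (adjusted p = 0.0515).

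SDHB was the 1 gene of the 8 with higher efficiency in starved cells, by 0.49 on the log2 scale (SE 0.15, adjusted p = 0.0267), where 11.1% of transcripts were called higher. Footprints per RNA went from 1.43 to 2.02 for SDHB and from 1.32 to 0.937 for SDHA. With the factors of the printed levels, they went from 1.39 to 1.85 for SDHB and from 1.28 to 0.862 for SDHA. The efficiency change of SDHB was then 0.40 (adjusted p = 0.0589) and no longer called, while that of SDHA was −0.57 (adjusted p = 0.0108). The SDHB efficiency call held in 11 of 20 alternatives, and the log2 fold change stayed between 0.38 and 0.63 in all 20. It was lost without a filter, with the factors of the printed levels, and without fed footprint replicate 2 or 3, starved footprint replicate 3, fed RNA replicate 1 or 2, or starved RNA replicate 2 or 3, with adjusted p of 0.0526 or more.

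Since both subunits were counted in the same libraries, their ratio does not depend on the scaling between libraries. The ratio of SDHB to SDHA counts in RNA was 0.781, 0.794 and 0.733 in fed and 1.15, 1.04 and 1.00 in starved libraries. In footprints it was 0.890, 0.797 and 0.804 in fed and 2.88, 1.72 and 2.45 in starved libraries. Both assays moved towards SDHB, with no overlap. The log2 ratio rose by 0.46 in RNA and by 1.47 in footprints, each with an exact two-sided permutation p of 0.1 (n = 3 per group), the smallest that 3 against 3 libraries allow.

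**Figure D2:**
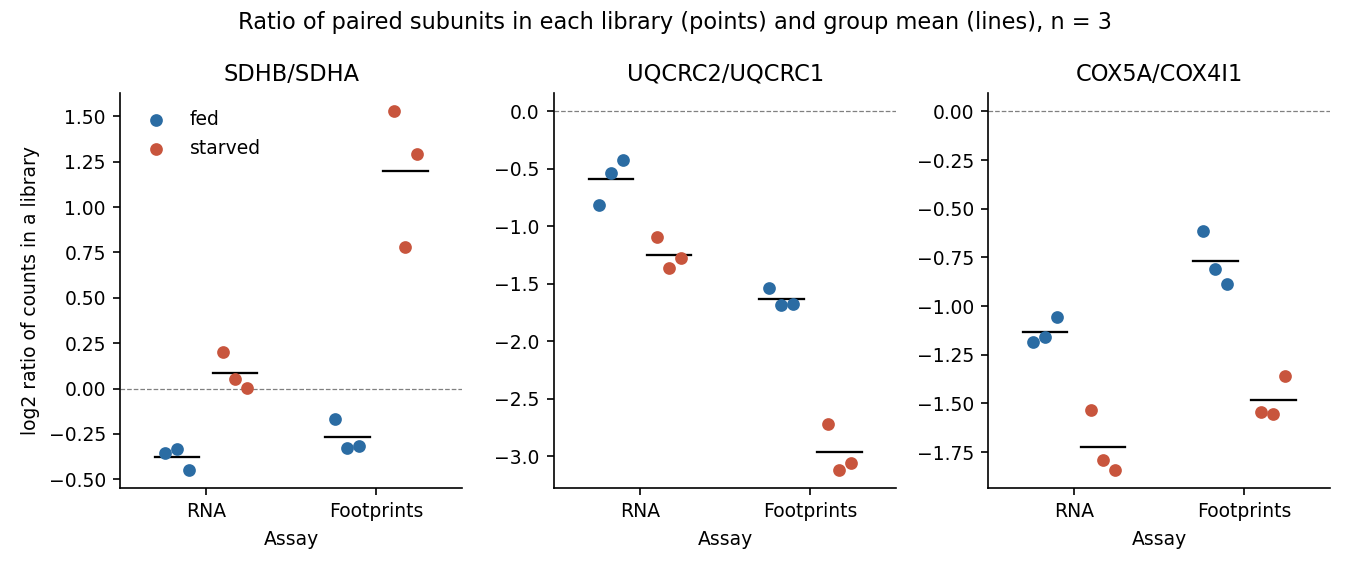
Log2 ratio of the counts of 2 subunits of a complex within each library (vertical axis) for RNA and footprints; points are libraries, lines are group means (n = 3), fed in blue and starved in red. Fed and starved libraries are apart in all 6 comparisons, and the mean SDHB/SDHA footprint log2 ratio goes from −0.27 to 1.20. The share of other transcript pairs that lie apart was not counted.

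Complex III passes electrons from ubiquinol to cytochrome c. UQCRC1 and UQCRC2 encode its core proteins, large matrix-facing subunits without redox centres that are related to mitochondrial processing peptidase. UQCRC2 had the lowest log2 fold change of the 8 genes in each comparison. UQCRC2 RNA was 72.0, 72.2 and 73.6 CPM in fed and 42.2, 39.6 and 41.4 CPM in starved libraries. UQCRC2 footprints were 96.5, 98.9 and 90.1 CPM in fed and 26.2, 26.6 and 26.02 CPM in starved libraries. The groups were far apart in both assays. The starved footprint values rest on 62, 75 and 97 counts; their closeness is smaller than the counting error, the exact Poisson 95% interval of replicate 1 running from 20.1 to 33.6 CPM.

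UQCRC2 changed by −0.82 in RNA (SE 0.09, adjusted p = 3.74e-13) and by −1.86 in footprints (SE 0.13, adjusted p = 9.81e-07), a fall to 0.276 of the fed level. Of all tested transcripts, 1.19% had a lower footprint change, while 12.2% had a lower RNA change. Its efficiency fell by 0.95 (SE 0.13, adjusted p = 3.30e-05), from 1.35 to 0.698 footprints per RNA, and 2.13% of transcripts had a lower value. All 3 calls held in every alternative setting and with each library left out, with efficiency changes between −1.05 and −0.86.

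UQCRC1 had smaller fold changes than UQCRC2. UQCRC1 RNA was 127, 105 and 98.3 CPM in fed and 90.3, 102 and 100.05 CPM in starved libraries, so the groups overlapped. The log2 fold change of −0.18 (SE 0.08) was called with adjusted p = 0.0394, but it was −0.06 (adjusted p = 0.546) without fed RNA replicate 1, the highest library, and −0.12 (adjusted p = 0.210) without starved RNA replicate 1, the lowest. The call was also lost without fed RNA replicate 2 (adjusted p = 0.0660) or starved RNA replicate 3 (adjusted p = 0.0530), with the Wald test of DESeq2 (adjusted p = 0.116) and with limma-voom (adjusted p = 0.0533). UQCRC1 footprints were 279.9, 318 and 288 CPM in fed and 173, 232 and 217 CPM in starved libraries, without overlap. Their log2 fold change was −0.51 (SE 0.13, adjusted p = 0.00930). The efficiency change of −0.24 (95% interval −0.56 to 0.07, adjusted p = 0.262) was not called.

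The ratio of UQCRC2 to UQCRC1 counts was 0.569, 0.690 and 0.748 in fed and 0.468, 0.388 and 0.414 in starved RNA libraries. In footprints it was 0.345, 0.311 and 0.313 in fed and 0.152, 0.115 and 0.120 in starved libraries. No starved library reached the fed range in either assay. The log2 ratio fell by 0.66 in RNA and by 1.33 in footprints (exact two-sided permutation p = 0.1 each, the smallest possible).

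Complex IV, cytochrome c oxidase, passes electrons to oxygen. Its catalytic core is encoded by mitochondrial DNA, while COX4I1 and COX5A are nuclear subunits that join the core early in assembly. COX5A fell in both assays. COX5A RNA was 101, 91.6 and 91.2 CPM in fed and 64.0, 56.7 and 55.7 CPM in starved libraries, and COX5A footprints were 259.6, 250.3 and 219.6 CPM against 108, 110.1 and 117 CPM. Every starved library lay below every fed library. The log2 fold change was −0.69 in RNA (SE 0.08, adjusted p = 2.22e-11) and −1.12 in footprints (SE 0.12, adjusted p = 2.19e-05), where 5.65% of transcripts had a lower value. Its efficiency change of −0.35 (SE 0.13, adjusted p = 0.0579) was not called; it was called in 5 of 20 alternatives, among them those without fed footprint replicate 3 or fed RNA replicate 1, with adjusted p from 0.0205 to 0.291 over all 20.

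COX4I1 changed in footprints and not detectably in RNA. COX4I1 RNA was 229.7, 205 and 190 CPM in fed and 185, 196 and 199.6 CPM in starved libraries, with a log2 fold change of −0.11 (95% interval −0.25 to 0.04, adjusted p = 0.183). The RNA groups overlapped. The RNA change was smaller without fed RNA replicate 1 (−0.02, adjusted p = 0.785) or starved RNA replicate 1 (−0.07, adjusted p = 0.454). It was larger and called without fed RNA replicate 3 (−0.17, adjusted p = 0.0397) and with trend removal (−0.29, adjusted p = 0.000240). COX4I1 footprints were 398, 439 and 406 CPM in fed and 314, 323 and 299 CPM in starved libraries, which did not overlap. The log2 fold change in footprints was −0.41 (SE 0.11, adjusted p = 0.0100), and it was −0.25 (adjusted p = 0.0672) with the abundance trend removed. The difference between the 2 assays was itself not called: the efficiency change was −0.22 (95% interval −0.48 to 0.05, adjusted p = 0.233).

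The ratio of COX5A to COX4I1 counts was 0.439, 0.448 and 0.480 in fed and 0.346, 0.289 and 0.279 in starved RNA libraries. In footprints it was 0.653, 0.570 and 0.541 in fed and 0.343, 0.341 and 0.390 in starved libraries. The log2 ratio fell by 0.59 in RNA and by 0.71 in footprints (exact two-sided permutation p = 0.1 each). Over the 6 tests of 3 pairs in 2 assays the adjusted p was 0.1 for each, so none can pass the threshold in this design. The groups were apart in all 6, but how often ratios of other transcript pairs lie apart was not counted. Of single transcripts, 35.0% lay wholly above and 34.8% wholly below in RNA, and 24.4% and 26.2% in footprints.

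ATP5F1B encodes the catalytic beta subunit of the F1 part of ATP synthase, where ADP is phosphorylated. ATP5F1B RNA was 694, 657 and 677 CPM in fed and 556, 601 and 581 CPM in starved libraries, without overlap. ATP5F1B footprints were 1119, 1156 and 1064 CPM in fed and 649, 873 and 777 CPM in starved libraries, also without overlap. Its log2 fold changes were −0.22 in RNA (SE 0.07, adjusted p = 0.00463) and −0.54 in footprints (SE 0.12, adjusted p = 0.00394), both modest beside UQCRC2, COX5A or SDHA. Its efficiency change of −0.23 (95% interval −0.50 to 0.04, adjusted p = 0.210) was not called.

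**Figure D3:**
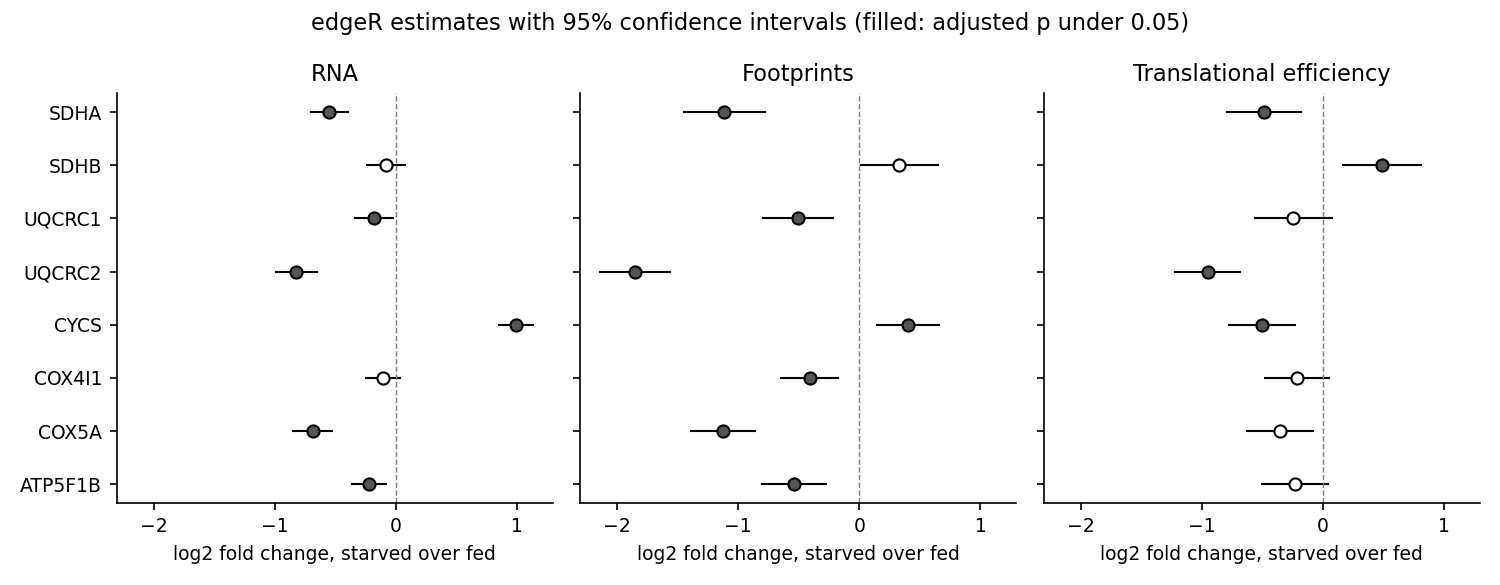
Log2 fold change, starved over fed (horizontal axis), of each gene in RNA, footprints and translational efficiency, from edgeR with 95% confidence intervals; filled points passed the adjusted threshold of 0.05, n = 3 libraries per group and assay. SDHA and SDHB lie on opposite sides of 0 in efficiency (−0.49 and 0.49), and UQCRC2 is the lowest gene in all 3 panels.

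Within groups, starved footprint replicate 1 was the lowest starved library for ATP5F1B, UQCRC1, SDHA and COX5A and the highest for CYCS. In RNA, starved and fed libraries did not overlap for 5 of the 8 genes, 1 above and 4 below; over all tested transcripts 35.0% lay wholly above and 34.8% wholly below. In footprints they did not overlap for 7 genes, 1 above and 6 below, against 24.4% and 26.2% of all tested transcripts. With library totals in place of TMM scaling, all 8 genes were apart in RNA, 1 above and 7 below, while 69.7% of all tested transcripts were apart, 28.6% above and 41.2% below. The median RNA change of all transcripts was then −0.12 in place of −0.01, with 27.6% called higher and 40.4% lower, and SDHB (−0.19, adjusted p = 0.0270) and COX4I1 (−0.22, adjusted p = 0.00713) were called lower.

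**Figure D4:**
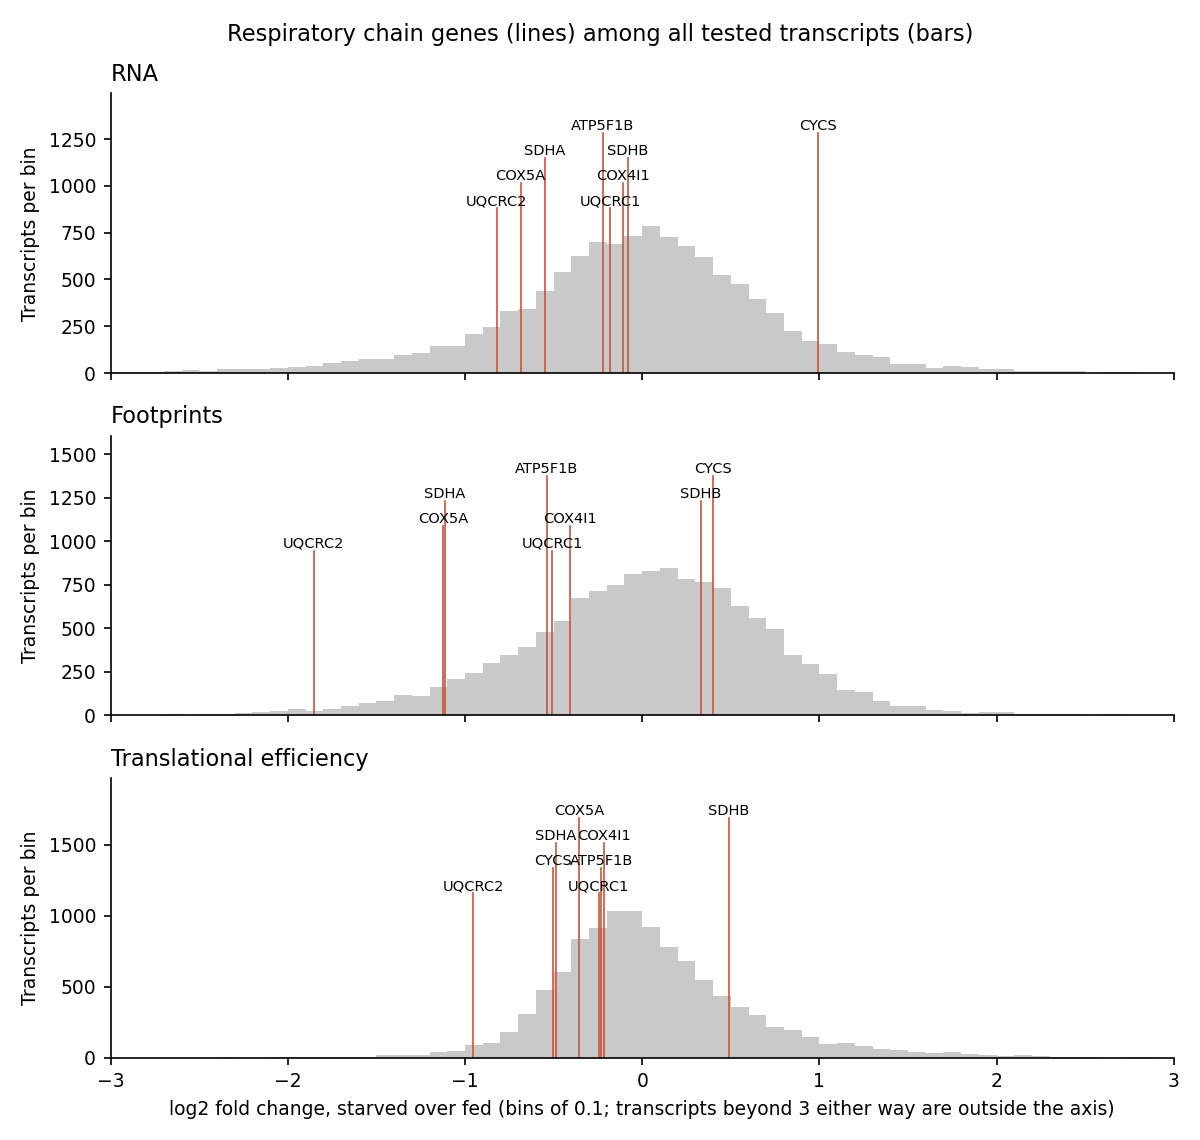
Number of tested transcripts per bin of 0.1 in log2 fold change, starved over fed (grey bars), with the 8 genes as red lines, for RNA, footprints and translational efficiency. In footprints UQCRC2 (−1.86), COX5A (−1.12) and SDHA (−1.12) stand in the lower tail, where 1.19%, 5.65% and 5.76% of transcripts had a lower value.

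The makeup of the group shifted towards cytochrome c in both assays, and in footprints also towards SDHB. CYCS took 15.0 ± 0.924% of the RNA counts on the 8 genes when fed and 29.7 ± 1.38% when starved (SD, n = 3). In footprints the share of CYCS went from 9.78 ± 0.611% to 17.6 ± 2.79%. The share of SDHB went from 3.99 ± 0.536% to 6.88 ± 1.04% in footprints, without overlap. A share also rises where the other genes fall, and 6 of the 8 fell in footprints. The footprint level of SDHB itself overlapped between groups and was not called (log2 fold change 0.33, adjusted p = 0.0891 in edgeR). How often shares within other groups of transcripts lie apart was not counted. In RNA the SDHB share was 4.86 ± 0.135% and 4.57 ± 0.166%, with overlap. The share of UQCRC2 went from 4.62 ± 0.191% to 2.60 ± 0.107% in RNA and from 3.59 ± 0.0321% to 1.35 ± 0.0762% in footprints. Such shares also reflect transcript length and serve here only to compare groups for the same gene.

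Summed over the 8 genes, RNA was 1697, 1603 and 1598 CPM of the library total, without TMM factors, in fed and 1490, 1559 and 1504 in starved libraries. On average the sum dropped by 7.06% in starved libraries, but it was 0.468% higher with TMM scaling and 3.19% higher without ATP5F1B, so the summed RNA had no direction that held. This sum sets the CYCS rise, from a mean of 236 to 469 CPM with TMM scaling, against the other 7 genes. All 7 had an RNA log2 fold change below 0. With library totals, the starved libraries lay wholly below the fed ones for all 7, as for 41.2% of all tested transcripts. With TMM scaling this held for 4, as for 34.8% of all, and 3 overlapped. A sum without CYCS was not taken, so the total of the 8 does not show that the RNA of these 7 was unchanged. Summed footprints were 2660, 2638 and 2460 CPM in fed and 1854, 2068 and 2001 CPM in starved libraries. This sum dropped by 23.7% on average; it dropped by 26.2% with TMM scaling and dropped by 19.9% without ATP5F1B.

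Counts of some genes are uncertain because near-identical copies can share reads, and how such reads were assigned is not stated in these sources. RefSeq lists 45 pseudogenes named for CYCS and 4 for SDHA, against none to 2 for each of the other 6 genes. How much of the CYCS or SDHA change involves reads from such copies was not tested. Other respiratory chain subunits, those encoded by mitochondrial DNA and markers of the cell line are not analysed here, because the tables carry transcript identifiers alone and 0 of 19849 were found in the gene tables at hand.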

How the data were processed

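The study measured RNA and ribosome footprints in 12 RKO libraries, 3 per group and assay. The 2 deposited tables, 1 per assay, hold raw counts for each Ensembl transcript, and the values are whole numbers with unequal library totals. Per the labels' protocols, a TruSeq kit was used for RNA and RiboCop removed ribosomal RNA. The submitters' processing notes name GRCh38.p13, STAR, cutadapt, DESeq2 and UMI-tools without roles or versions. Which counter and annotation release were used, how shared reads were treated and which region was counted is not given in the sources used here.

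Total counts ranged from 4670881 to 7967215 per RNA library and from 2063952 to 4364383 per footprint library, and the biological coefficient of variation was 5.75% and 13.7%. Counting intervals cover counting error only. Both tables were fitted whole in edgeR 4.0.16 (R 4.3.3) with quasi-likelihood F tests, two-sided, TMM factors and filterByExpr, and p-values were Benjamini-Hochberg adjusted over all transcripts tested. Efficiency was the assay by treatment interaction over 12 libraries, with factors computed within each assay over transcripts kept in both. That fit shared its dispersion between the assays, with a coefficient of variation of 8.54%. For SDHA the standard error of efficiency, 0.147, lay below that of footprints alone, 0.154. A fit with a separate spread for each assay was not run. Subunit ratios were tested by exact permutation (SciPy 1.17.1). The tests were tried on simulated counts in which few transcripts changed and all transcripts of an assay had the same spread. In these data many transcripts were called, so that trial does not show how the tests perform here. Alternatives were DESeq2 size factors, library totals, no filter, the Wald test of DESeq2 1.42.0, limma-voom (limma 3.58.1), the replicate number as a block, removal of an abundance trend (loess, span 0.3), and leaving out each library. Scaling over all transcripts kept in each assay, and the share called among transcripts whose average log2 CPM was 5 or more, were added after the data were seen.

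The genes and gene lists were chosen with earlier results of these data known. By the rule for named genes each of the 9 genes is described; the lists of other subunits and of cell type markers need gene names and were not used, nor was the planned share of arginine, which needs protein sequences.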

Additional observations from a re-analysis of the deposited data

How the results depend on the processing

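Of the 8 genes, 5 to 7 were called in RNA and 6 to 7 in footprints when each library was left out, against 6 and 7 with all libraries. Of all transcripts, 62.4% to 65.7% were then called in RNA and 30.5% to 36.3% in footprints, against 67.9% and 39.8%. For efficiency the number called ranged from 2 to 4, against 4, and the share of all transcripts from 17.3% to 23.0%, against 22.8%. It was 2 genes without fed RNA replicate 2 (CYCS and UQCRC2 lower) and 2 without starved RNA replicate 3 (the same 2 genes), with 17.8% and 18.5% of all transcripts called. With the abundance trend removed it was also 2 (UQCRC2 lower, SDHB higher), beside 19.3% of all, and the efficiency change of COX4I1 turned to 0.0483 (adjusted p = 0.825 in edgeR). Over all single-gene fold changes it was the 1 sign that turned, while 4 footprint, 6 RNA and 15 efficiency calls were lost and 1, 5 and 5 gained; the cause was not tested. The log2 summed RNA, −0.11 with library totals, was 0.00674 with TMM scaling and 0.0454 without ATP5F1B. The replicate number was not treated as a pairing. Deviations from group means correlated across transcripts between −0.21 and 0.10 for same-numbered fed and starved libraries of an assay. They correlated between −0.02 and 0.13 for same-numbered RNA and footprint libraries of a treatment. For libraries of different number the ranges were −0.11 to 0.13 and −0.11 to 0.09. Deviations from a mean of 3 libraries are not independent, so these values cannot exclude a pairing. With the replicate block, 6 genes were called in RNA, 7 in footprints and 4 in efficiency. Leaving out each library, the log2 ratio changes ranged from 0.41 to 0.51 (RNA) and 1.31 to 1.68 (footprints) for SDHB to SDHA, from −0.77 to −0.57 and −1.46 to −1.26 for UQCRC2 to UQCRC1, and from −0.68 to −0.53 and −0.78 to −0.64 for COX5A to COX4I1. The planned comparison of arginine share was not run. The median standard error over all transcripts was 0.10 for RNA, 0.19 for footprints and 0.20 for efficiency; counting error and replicate spread were not separated.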
